A study of Zea mays with 4 samples.

Results

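In maize, 3 genes carry the names sut1, sut2 and sut4 among the NCBI symbols and synonyms, and they are described here across the 4 root tip libraries of the series. Each name matched 1 gene, so the 3 members are LOC541615 (sut1, GeneID 541615), LOC100280251 (sut2, GeneID 100280251) and LOC100240688 (sut4, GeneID 100240688), of 48174 genes in the files. No other gene carried a sut name in the table of names. The matching of names to genes used no measured value. All 3 passed the filter for expressed genes (edgeR's filterByExpr, minimum count 10), as did 57.6% of the protein-coding genes.

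The libraries came from 1 group of 4 biological replicates of untreated seedlings of the inbred B73, 3 days old and grown at 28 C in constant dim light of about 500 lux. Each holds whole-cell RNA, depleted of ribosomal RNA, from the last 1 mm of primary and seminal roots together. There was no second condition, and the root types cannot be told apart. The comparisons are therefore between genes within the same libraries.

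Sucrose transporters of the SUT family are membrane proteins that carry sucrose together with protons. In maize, sut1 encodes a plasma membrane transporter that loads sucrose into the phloem of source leaves, and sut2 encodes a protein of the vacuolar membrane that lets sucrose out of the vacuole. No role is given here for sut4. In a growing root tip sucrose arrives through the phloem, passes to the dividing cells largely through plasmodesmata, and is then split by sucrose synthases and invertases.

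Library totals ran from 9168397 to 14728175 counts, and levels are given as CPM (a gene's counts divided by its library total, times 1000000). Both root cap genes matched by name, RCP1 and RCP2, were abundant, with a summed level of 316 to 423 CPM over the libraries, and the 4 genes of dividing cells (PCNA, pcna2, MCM6 and MCM7) summed to 585 to 630 CPM. Of 47 seed genes 43 had no count in any library, as did 17448 of all 48174 genes and 7735 of the 34018 protein-coding genes, and the list summed to 2.07 to 10.4 CPM. Of 15 leaf and plastid genes 7 had no count and 2 passed the filter, PPDK at 60.0 ± 20.6 CPM and Cab-m7 at 3.45 ± 1.13 CPM (SD, n = 4 each). No phloem marker of the list could be matched by name, so the phloem content of the tips was not measured. In such bulk samples fewer cells of a type and less RNA per cell cannot be told apart.

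The vacuolar transporter gene sut2 had the highest read level of the 3. It stood at 56.6, 52.4, 59.7 and 54.8 CPM in replicates 1 to 4, on 833, 480, 824 and 747 counts. The exact Poisson 95% intervals of these levels, which cover counting error only, ran from 47.8 to 57.3 CPM in replicate 2, the lowest library, and from 55.7 to 63.9 CPM in replicate 3, the highest, so the extremes overlapped within counting error. The mean was 55.9 ± 3.07 CPM (SD, n = 4). Of 19603 expressed protein-coding genes, 83.8% had a lower mean CPM.

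The sut4 gene was intermediate, with 33.5, 30.1, 29.6 and 26.8 CPM in replicates 1 to 4, on 493, 276, 409 and 365 counts. Replicate 1 was the highest and replicate 4 the lowest, and their Poisson intervals, 30.6 to 36.6 and 24.1 to 29.7 CPM, did not overlap. Both libraries were picked as the extremes of 4, so this is no test. The mean was 30.0 ± 2.74 CPM (SD, n = 4), above that of 70.6% of the expressed protein-coding genes.

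The phloem-loading transporter gene sut1 was low but was found in every library. It had 33, 13, 47 and 26 counts in replicates 1 to 4, which are 2.24, 1.42, 3.40 and 1.91 CPM. Replicate 3 was the highest, with a Poisson interval of 2.50 to 4.52 CPM, and replicate 2 the lowest, with 0.755 to 2.42 CPM. The intervals of these libraries did not overlap, but they were picked as the extremes of 4, so this is no test. The mean was 2.24 ± 0.844 CPM (SD, n = 4), and 7.99% of the expressed protein-coding genes had a lower mean. The limit that a count of 0 allows, taken as 3 counts, was 0.204 to 0.327 CPM across the libraries, and sut1 lay above it in 4 of 4. The expression filter that sut1 passed asks for a higher level, so this is no separate test of detection.

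**Figure D1:**
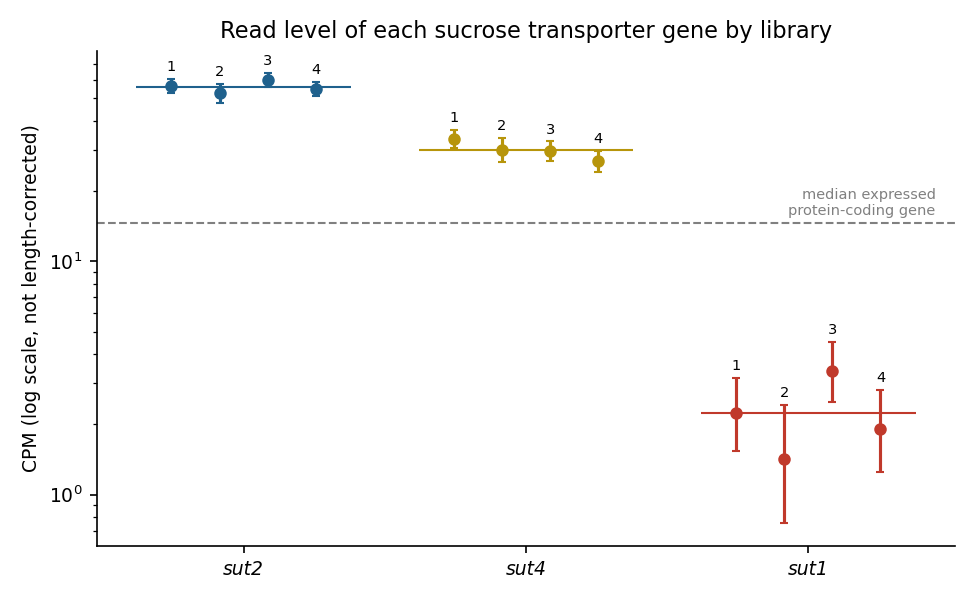
CPM of sut2, sut4 and sut1 in each library on a log axis, with replicate numbers beside the points, exact Poisson 95% intervals as bars, the mean over 4 libraries as a horizontal line and the mean level of the median expressed protein-coding gene as a dashed line. All sut2 and sut4 points lie above the dashed line at 14.6 CPM, and all sut1 points, from 1.42 to 3.40 CPM, lie below it.

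Each gene was then set against the median expressed protein-coding gene of its own library, which stood at 14.6 ± 0.678 CPM (SD, n = 4). An intercept-only quasi-likelihood model in edgeR tested for a difference of more than 2-fold in either direction, with Benjamini-Hochberg adjustment over all 21039 expressed genes. In this test 25.6% of the expressed genes lay above the median gene, 26.9% below and 47.5% neither. Of the 3 transporter genes 1 lay above, 1 below and 1 neither.

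The read level of sut2 was 3.84, 3.78, 4.12 and 3.54 times that of the median gene in replicates 1 to 4. Its fitted log2 ratio was 1.93 ± 0.09 (SE), and it lay above (edgeR, adjusted p = 9.3e-09). For sut4 the ratios were 2.27, 2.17, 2.05 and 1.73, so replicate 4 fell short of 2-fold. Its fitted log2 ratio of 1.04 ± 0.09 (SE) sits almost on the 2-fold threshold, and the gene did not pass (edgeR, adjusted p = 1). Without the 2-fold threshold sut4 lay above (edgeR, adjusted p = 3.79e-09), as did 44.3% of the expressed genes. For sut1 the ratios were 0.152, 0.102, 0.235 and 0.123, all below 1. Its fitted log2 ratio was -2.68 ± 0.18 (SE), a level 6.40 times lower than the median gene, and it lay below (edgeR, adjusted p = 6.87e-07). With every gene that had a count in the fit, which lowers the median gene, the log2 ratio was -1.83 for sut1, 2.78 for sut2 and 1.89 for sut4, and all 3 passed.

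**Figure D2:**
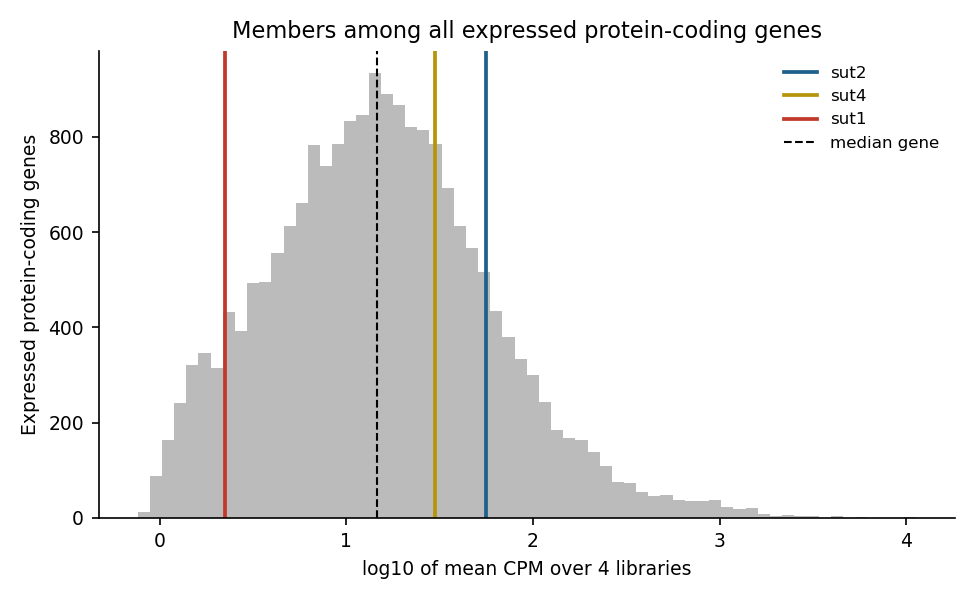
Histogram of the log10 mean CPM over 4 libraries of the 19603 expressed protein-coding genes, with lines for sut2, sut4, sut1 and the median gene. The sut2 line stands in the upper flank (55.9 CPM), sut4 between it and the median gene (30.0 CPM), and sut1 near the lower end (2.24 CPM).

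These are levels of reads and not of molecules. No transcript length was at hand, and a longer transcript gives more reads for the same number of molecules. The order of the members is therefore an order of reads, and the ratios below hold for reads only.

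Within each library sut2 had the most reads, sut4 the next most and sut1 the fewest. The ratio of sut2 to sut1 reads was 25.2, 36.9, 17.5 and 28.7 in replicates 1 to 4, a mean log2 ratio of 4.71 ± 0.45 (SD, n = 4) or 26.2-fold. The ratio of sut4 to sut1 reads was 14.9, 21.2, 8.70 and 14.0, a mean log2 ratio of 3.81 ± 0.53. In both, replicate 3 gave the smallest ratio and replicate 2 the largest, which are the libraries where sut1 itself was highest and lowest.

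The sut2 to sut4 ratio of reads was much smaller and varied little, with 1.69, 1.74, 2.01 and 2.05 in replicates 1 to 4. Its mean log2 value was 0.90 ± 0.14 (SD, n = 4), or 1.87-fold. The lowest sut2 library, at 52.4 CPM, still lay above the highest sut4 library, at 33.5 CPM. Each of the 3 ratios was above 1 in 4 of 4 libraries and larger than its own spread. The exact two-sided sign-flip permutation test gave p = 0.125 for each (0.125 after adjustment over the 3 pairs), which is the smallest p this test can give with 4 libraries, so the test cannot pass 0.05.

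**Figure D3:**
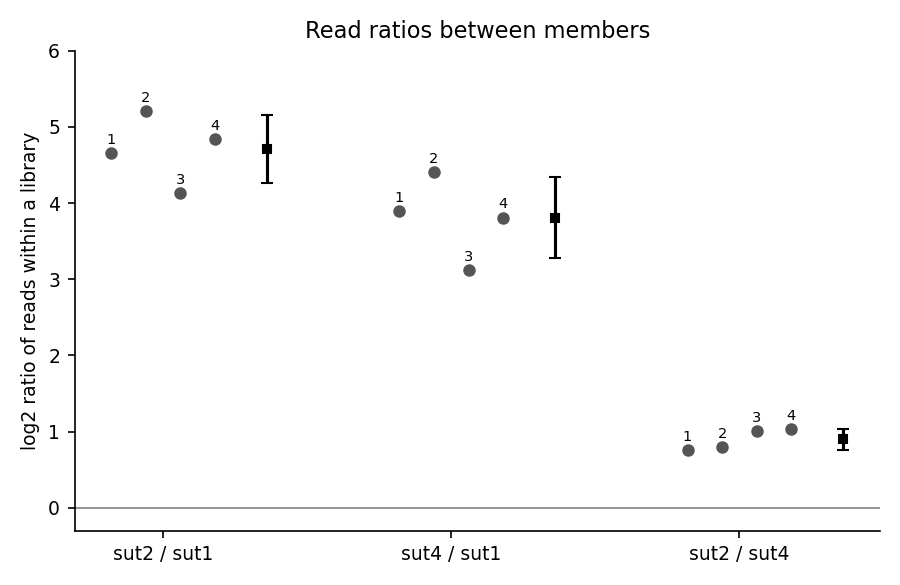
Log2 ratio of reads between members within each library (round points, numbered by replicate), with mean ± SD over 4 libraries as squares with bars. All points lie above 0, and the sut2 / sut4 points, at 0.76 to 1.03, lie far below those of both ratios to sut1, at 3.12 to 5.21.

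The 3 genes summed to 92.3, 83.9, 92.7 and 83.5 CPM in replicates 1 to 4, a mean of 88.1 ± 5.06 CPM (SD, n = 4). Other sucrose transporter genes could not be matched by name, so the sum and the shares cover these 3 genes and not a whole family. The share of sut2 in the summed sut counts was 63.4 ± 1.95%, with 61.3% in replicate 1 (exact Clopper-Pearson 95% interval 58.6 to 63.9%) and 65.6% in replicate 4 (62.8 to 68.4%). The share of sut4 was 34.0 ± 2.36%, between 32.0% in replicate 3 and 36.3% in replicate 1. The share of sut1 was 2.52 ± 0.832%, between 1.69% in replicate 2 (0.903 to 2.87%) and 3.67% in replicate 3 (2.71 to 4.85%). The division of the reads among the 3 genes thus had the same order in every library.

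The spread of each member across the replicates is described here, and differences in spread between the members were not tested. The coefficient of variation of CPM was 5.49% for sut2, where counting error alone would give 3.80%. For sut4 it was 9.13%, against 5.19% from counting alone. For sut1 it was 37.6%, against 19.0% from counting alone.

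Set beside the 500 expressed protein-coding genes nearest in mean CPM, sut2 was among the steadier genes. The median coefficient of those genes was 11.4%, and 11.2% of them had a lower one than sut2. The genes of like level to sut4 had a median of 10.8%, and 37.2% of them had a lower one than sut4. Those of like level to sut1 had a median of 21.9%, and 90.4% of them had a lower one than sut1. The sut1 value rests on replicate 3, without which it was 22.3%. These ranks are descriptions over 4 libraries and carry no test.

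**Figure D4:**
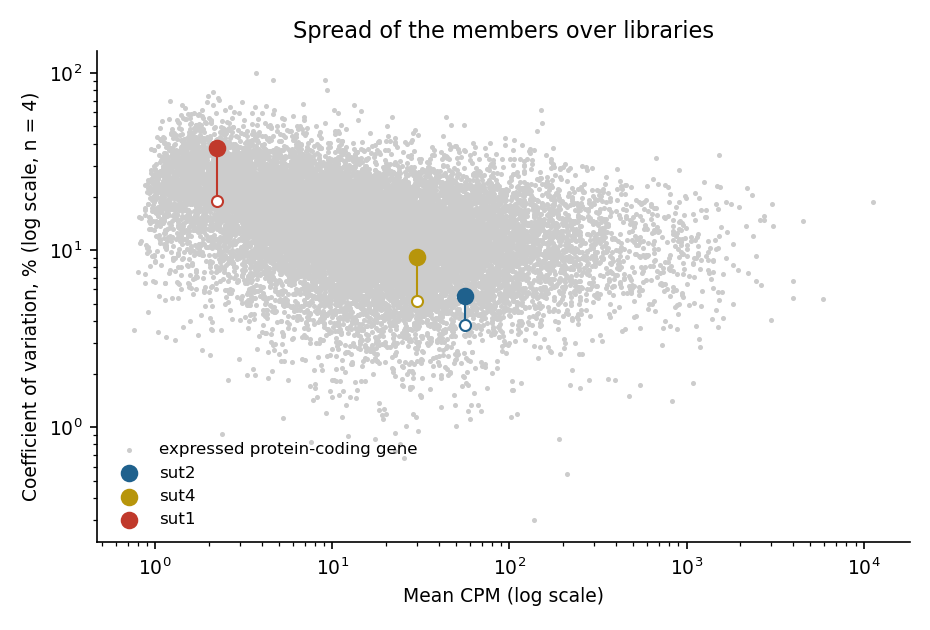
Coefficient of variation of CPM over 4 libraries against mean CPM, both on log axes, for the expressed protein-coding genes (grey) and the members (filled colour), with open circles at the value counting error alone would give each member. The sut1 point, at 37.6%, lies in the upper part of the cloud at its level and the sut2 point, at 5.49%, in the lower part.

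The other named genes linked to sugar handling give the setting of these levels. The lists held sucrose synthases, invertases, sucrose-phosphate synthases and phosphatases, hexose transporters taken by name alone, and sxd1. The gene sxd1 is listed for the effect of its loss on sucrose export. Matched by name, 14 such genes were in the files, and 9 passed the expression filter, which 57.6% of all protein-coding genes passed. Of these 9, 5 lay above the median gene, 2 below and 2 neither in the same edgeR test, where 25.6% of all expressed genes lay above, 26.9% below and 47.5% neither. Their median log2 ratio was 1.93, against -0.07 over all expressed genes and 0.00 over the expressed protein-coding genes. Of those 19603 protein-coding genes, 5206 lay above, 4911 below and 9486 neither. No SWEET exporter, neutral invertase or companion cell gene could be matched by name, and those genes were not analysed here.

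The sucrose synthases, which split sucrose reversibly with UDP, had the highest read levels. The sus1 gene stood at 903 ± 258 CPM and sh1 at 280 ± 54.0 CPM (SD, n = 4 each), and both lay above the median gene (edgeR, adjusted p = 1.93e-18 and 9.32e-16). The third, sus2, was not among the expressed genes, at 0.962 ± 0.467 CPM. Every library of sus1 and sh1 was above the highest sut2 library.

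Among the invertases, which split sucrose into glucose and fructose, 1 cell wall gene and 1 vacuolar gene lay above the median gene. The cell wall gene incw1 stood at 116 ± 18.6 CPM (edgeR, adjusted p = 8.07e-13). INCW2, also named mn1 and known for its role in the developing kernel, had 1 count over the 4 libraries, and incw3 had 0, which allows up to 0.0584 CPM over the group. The vacuolar gene ivr2 stood at 45.3, 32.7, 71.7 and 74.7 CPM in replicates 1 to 4, a mean of 56.1 ± 20.4 CPM. That mean is close to the 55.9 CPM of sut2, but the ivr2 libraries spread over a far wider range, with a coefficient of variation of 36.4%. The other vacuolar gene, IVR1, stood at 6.15 ± 1.32 CPM and did not pass (edgeR, adjusted p = 0.115).

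For the synthesis of sucrose, the phosphatase genes spp1 and SPP2, whose enzymes take the phosphate off sucrose phosphate, stood at 29.2 ± 3.86 and 3.70 ± 0.235 CPM, and SPP2 lay below the median gene (edgeR, adjusted p = 5.72e-06). The sucrose-phosphate synthase gene sps1 had 0 counts in 4 of 4 libraries, which allows up to 0.0584 CPM. MST1, taken as a monosaccharide transporter by its name alone, stood at 68.6 ± 13.9 CPM and lay above (edgeR, adjusted p = 1.75e-09), whereas MST2 had 0 counts. The gene sxd1, whose loss blocks sucrose export from maize leaves, stood at 3.76 ± 0.492 CPM and lay below (edgeR, adjusted p = 1.07e-05). Without the expression filter sxd1 and SPP2 no longer passed (edgeR, adjusted p = 0.59 and 0.435).

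**Figure D5:**
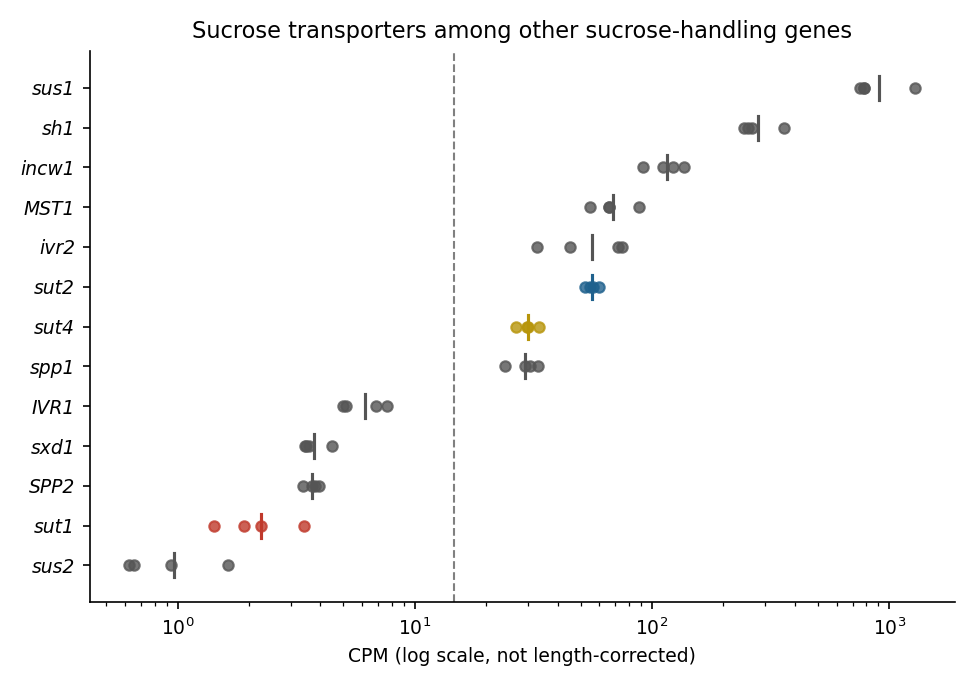
CPM in each library (points) and mean (tick) on a log axis for sut1, sut2 and sut4 (coloured). The other named sugar-handling genes with more than 3 counts over the group are grey, and the median expressed protein-coding gene is dashed. sut2 lies beside ivr2 but with a narrower range, sut4 lies beside spp1, and sut1 lies near the bottom with sxd1 and SPP2.

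By likeness of level over the 4 libraries, measured as the root mean square difference of log2 CPM, the nearest of 127 expressed protein-coding genes with a symbol of their own were ts1, sbp7 and mbd111 for sut4, at 0.064, 0.13 and 0.14. For sut2 they were IDI2, lox11 and DAO, at 0.16, 0.16 and 0.17. For sut1 they were NAR, dsy2 and ra2, at 0.50, 0.51 and 0.56, larger differences than those of the genes nearest to sut2 and sut4. With 4 libraries of 1 group this is mainly a likeness of mean level.

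The gene spans of sut2 and sut4 each overlap 1 other protein-coding gene in the RefSeq annotation of Zm-B73-REFERENCE-NAM-5.0, and that of sut1 overlaps none. The gene that overlaps sut2, LOC103627907, stood at 5.40 ± 0.802 CPM, and the one that overlaps sut4, LOC100276924, had 12 counts over 4 libraries. No source used here says how reads from the overlaps were counted, and the exchange of reads with these genes was not tested. The annotation lists 2 transcripts for sut1, 7 for sut2 and 1 for sut4, and the counts are per gene, so they do not tell the transcripts apart.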

How the data were processed

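Total RNA of 4 root tip samples was sequenced from strand-specific libraries with molecular identifiers. For each GeneID the authors deposited estimated counts that had not been normalized. The submitters' processing notes name UMI-tools, SAMtools, HTSeq, deepTools, STAR 2.7.10b and Trimmomatic 0.36 and 0.39. No source used here gives their order or settings, the genome build, the strand setting or whether identifiers were collapsed. The intervals and the values for counting error alone take each count as independent, which was not checked. They cover no other error. A fractional value occurred in 3062 of 48174 genes (tolerance 1e-06), none of them a member, and values were rounded before tests. Names came from the RefSeq table of Zm-B73-REFERENCE-NAM-5.0, which held 48127 of the GeneIDs. Coordinates and sequences are not printed. A further table with 5 columns that match none of the samples was not used.

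An intercept-only model (edgeR 4.0.16, R 4.3.3) took as offset, in each library, the median count of expressed protein-coding genes. The quasi-likelihood F statistic compared the fit with the closer of the 2-fold bounds, and p-values were Benjamini-Hochberg adjusted at 0.05. The procedure was tested on simulated data. Alternatives used limma 3.58.1, DESeq2 1.42.0, other scalings and filters, and leaving out each replicate. Members, lists and tests were chosen with earlier results of these data known. Lists were matched by name; 26 PP2C phosphatase genes, 2 sgb genes and 2 seed-list genes were left out because their names stand for something else. Named genes were the members, the expressed genes of each list (at most the 4 highest and the lowest) and those with no count; markers, sus2 and INCW2 were added after their values were seen.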

Additional observations from a re-analysis of the deposited data

Results flagged for a closer look

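Of 19 sets of 4 library values checked for a library far from the others, 3 stood out by Dixon's criterion, where chance flags about 1 in 20. None of the 3 was a value of sut1, sut2 or sut4. The sus1 level was 1289 CPM in replicate 1 and 755 to 785 CPM in the other libraries. The sh1 level was 360 CPM in replicate 1 and 244 to 263 CPM in the others. The sxd1 level was 4.49 CPM in replicate 3 and 3.45 to 3.60 CPM in the others. Replicate 1 was the highest library of sut4 (33.5 CPM), and replicate 3 the highest of sut1 (3.40 CPM) and sut2 (59.7 CPM). These sut values did not stand out by the criterion, and a link to the flagged values was not tested.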

How the results depend on the processing

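No paired analysis was possible because the study has 1 group, with no second group to share its replicate numbers; the read ratios between genes are taken within libraries. Of 250 values recomputed under alternatives over 25 results, 237 kept their direction and call or stayed close. Without the fold threshold the expressed genes above and below the median gene numbered 9312 and 9913, against 5384 and 5668, and sut4 passed at an unchanged log2 ratio of 1.04. With every gene that had a count, which lowers the median gene, the numbers were 8674 and 12598 and sut4 passed at 1.89, as did spp1 at 1.85 (1.00 without the fold threshold), while SPP2 and sxd1 missed the threshold (-1.14 and -1.11). IVR1 passed below with limma (-1.26, adjusted p = 0.0496; 1.78e-07 without the fold threshold). The calls of sut1 and sut2 held under every alternative run, limma and DESeq2 included, with log2 ratios of -1.83 and 2.78 when every gene that had a count was fitted, against -2.68 and 1.93. Leaving out 1 replicate gave log2 ratios of -2.94 to -2.53 for sut1, 1.91 to 1.98 for sut2 and 0.99 to 1.13 for sut4. It gave 4.54 to 4.90 for sut2 over sut1, 3.61 to 4.04 for sut4 over sut1 and 0.86 to 0.95 for sut2 over sut4. The coefficient of variation of sut1 ranged from 22.3% without replicate 3 to 46.1% without replicate 1. Counts per kb were not run because no protein or transcript lengths were given. Genes above and below numbered 5238 to 5464 and 5482 to 5826 with 1 replicate left out. The sut1 values rest on 119 counts over the 4 libraries.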
